A study of Rattus norvegicus with 4 samples.

Results

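The neuronal pentraxins were examined in the testis of male Sprague Dawley rats. Some had been given an antibody against follicle-stimulating hormone (FSH) for 4 days, and the others a control immunoglobulin. FSH levels were not part of the values used. Members were all probe sets that the platform annotation of the Affymetrix rat U34 array of set A assigns to exactly 1 gene symbol. That symbol had to be Nptx2, Nptx1 or Nptxr. These are 3 of the 4737 genes with such probe sets, and 6 of the 8799 probe sets on the array: 2 for Nptx2, 3 for Nptx1 and 1 for Nptxr. The compared groups were 2 arrays of testis RNA after the rat FSH antibody raised in sheep, and 2 arrays after the control sheep immunoglobulin. Both groups were Sprague Dawley males, an outbred laboratory strain, and no genetic change is named for either. Every source name gives postnatal day 18 and treatment for 4 days. The treatment protocol puts the first injection at day 18 of age and collection at day 22, and the series design gives day 14. The age at collection is therefore not settled. Antibody replicate 2 is titled postnatal day 4 with no treatment and was grouped by its source name. The extraction protocol pools about 20 organs per RNA sample and names them ovaries, whereas each source name gives the testis of 1 animal. The number of animals behind a value is therefore not settled, and p-values measure the spread between these RNA samples only.

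Neuronal pentraxins belong to the long pentraxins, secreted or membrane-bound proteins whose C-terminal domain resembles that of C-reactive protein. Nptx1 and Nptx2 are secreted, Nptxr is anchored in the membrane, and together they are best known from the brain, where they gather AMPA-type glutamate receptors at synapses. Nptx2, also called Narp, is known in neurons as a gene switched on quickly by electrical activity, and its guinea pig counterpart, apexin, is known from the acrosome of sperm. FSH acts on the Sertoli cells, which nurse the germ cells of the seminiferous tubule.

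The members were chosen by their measured values in this same comparison, above all the low Nptx2 signal after the antibody. Member values are therefore a description, and no test of a member is given. Because whole testis RNA was measured, fewer cells of a type and less RNA per cell cannot be told apart.

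The gene of the member that differed most, Nptx2, had an entry in the RefSeq promoter table, at chr12:15161996-15162295 on the minus strand of build GRCr8. The stretch covers 250 bases before the gene's start and 50 bases after it, and it is shown because Nptx2 is the pentraxin whose signal was clearly above the middle of the array and lower after the antibody. The capitals mark a cyclic AMP response element half-site (TGACG) and a CCAAT box (CCAAT).
Nptx2 promoter: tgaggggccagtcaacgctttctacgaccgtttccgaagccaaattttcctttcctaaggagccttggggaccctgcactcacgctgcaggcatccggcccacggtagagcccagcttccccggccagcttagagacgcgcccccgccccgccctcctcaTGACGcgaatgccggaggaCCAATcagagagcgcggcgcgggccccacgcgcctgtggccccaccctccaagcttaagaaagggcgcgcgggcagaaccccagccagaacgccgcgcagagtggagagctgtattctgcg
The half-site began 90 bases before the gene's start and the CCAAT box 71 bases before it. Searched on both strands, TGACG was found in 21.2% of the 33469 promoter stretches of this length in the table, and CCAAT in 37.5%. The palindromic full element (TGACGTCA), which contains the half-site, was not in this window and was found in 1.83% of all stretches. A GC box (GGGCGG) occurred 2 times, at 107 and 102 bases before the start, and was found in 33.1% of stretches. An EGR-type motif (GCGNGGGCG) occurred once, 112 bases before the start, in letters that overlap the first GC box, and was found in 4.98%. The AP-1 motif (TGANTCA), the nuclear receptor half-site (AAGGTCA) and the E-box (CANNTG) were not in this window, against 7.33%, 4.61% and 72.1% of all stretches. The stretch was 65.7% G and C, with a median of 51.7% over all stretches. These matches describe letters only. Nptx1 and Nptxr were not matched in that table.

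Nptx2, the secreted and inducible pentraxin, had less signal on both antibody arrays than on either control array, and this held for both of its probe sets. Probe set S82649_r_at read 59.4 and 76.2 on the antibody arrays, against 240.0 and 266.8 on the control arrays. These are linear intensities, 1 per probe set, on arrays scaled to 1 common mean by the depositors. The groups did not overlap, and the nearest antibody and control arrays were 163.8 units apart. The means were 67.8 ± 11.9 after the antibody and 253 ± 19.0 in the controls (SD, n = 2 each), so the antibody mean was 0.268 times the control mean. On the log2(intensity + 16) scale the difference was −1.69 ± 0.16 (SE, antibody minus control). The constant of 16 damps the noise of dim probe sets and understates their changes.

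The other Nptx2 probe set, S82649_s_at, read 106.9 and 125.7 on the antibody arrays, against 231.2 and 246.8 on the control arrays. Its groups did not overlap either. The means were 116 ± 13.3 after the antibody and 239 ± 11.0 in the controls, a ratio of 0.487 and a log2 difference of −0.95 ± 0.11. Both probe sets derive from 1 GenBank sequence, S82649, so they are not independent readings of the gene. In Affymetrix naming, the ending _s_at marks probes that more than 1 transcript may share, and _r_at marks a set for which the usual probe selection rules were relaxed.

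The size of the Nptx2 difference depended on the probe set. Within each array the log2 value of S82649_r_at minus that of S82649_s_at was −0.70 and −0.62 on the antibody arrays, against 0.05 and 0.11 on the control arrays. The paired probe sets thus changed unequally, by 0.74 on the log2 scale. Among 448 pairs of tested probe sets that share an accession, the median disagreement was 0.15. Counting the Nptx2 pair itself, 14 pairs (3.13%) disagreed by at least as much. That pair holds the tested probe set with the lowest difference of all and was chosen for its values, so this share is a description only. Which of the probe sets is nearer to the change of the transcript was not tested.

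**Figure D1:**
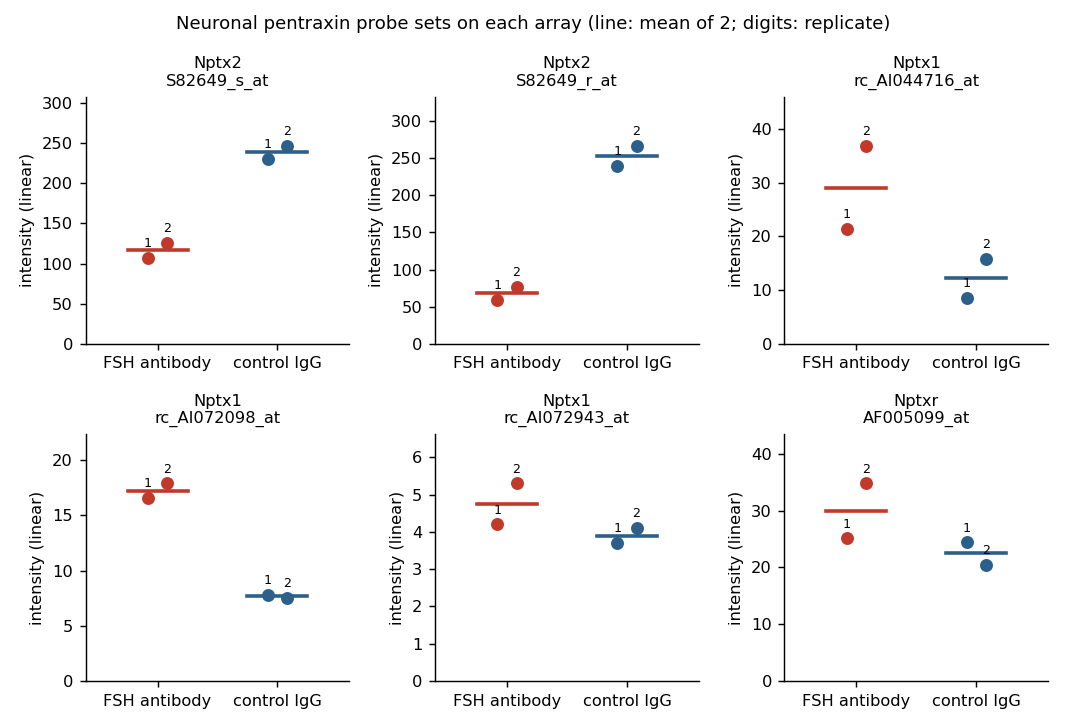
Linear intensity of the 6 neuronal pentraxin probe sets on each array, FSH antibody at left and control IgG at right, with each axis starting at 0; points are arrays, digits are replicate numbers and lines are group means. Both Nptx2 probe sets lie lower after the antibody (67.8 against 253 and 116 against 239 on average), while Nptx1 and Nptxr are dim on all 4 arrays.

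Nptx1, the other secreted neuronal pentraxin, was dim on every array. None of its 3 probe sets reached the level filter of the fit, the 40th percentile of the mean log2 values (5.30). Probe set rc_AI044716_at read 21.3 and 36.8 on the antibody arrays, against 8.5 and 15.8 on the control arrays, a log2 difference of 0.67 ± 0.31. The groups did not overlap, but the antibody arrays were further apart from each other (15.5 units) than from the nearest control array (5.5 units). Probe set rc_AI072098_at read 16.6 and 17.9 on the antibody arrays, against 7.8 and 7.5 on the control arrays, a log2 difference of 0.49 ± 0.03. Its replicates lay close together, within 1.3 units, and its groups were 8.8 units apart. The third, rc_AI072943_at, read 4.2 and 5.3 on the antibody arrays, against 3.7 and 4.1 on the control arrays. Its groups were 0.1 units apart, the log2 difference was 0.06 ± 0.04, and the sign turned to −0.04 after quantile normalization. The 3 Nptx1 probe sets come from different expressed sequence tags, and whether any of them was above background cannot be told, because no detection calls were used.

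Nptxr, the membrane-anchored member, lay just above the level filter, with a mean log2 value of 5.39. Its probe set AF005099_at read 25.1 and 34.8 on the antibody arrays, against 24.4 and 20.5 on the control arrays. The groups were separated by 0.7 units, less than the distance between the replicates of either group. The means were 30.0 ± 6.86 after the antibody and 22.5 ± 2.76 in the controls, a log2 difference of 0.25 ± 0.17. Without antibody replicate 2 it was 0.10, and without antibody replicate 1 it was 0.40.

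By level, the Nptx2 probe sets were among the brighter ones of the array and the other members among the dimmer ones. By the mean log2 value over the 4 arrays, S82649_s_at stood at the 79.3rd percentile of the 8740 probe sets that are not array controls, and S82649_r_at at the 75.5th. Nptxr stood at the 41.9th percentile, and the Nptx1 probe sets at the 35.9th, 27.3rd and 11.1th. Brightness also depends on the probes, so these percentiles do not rank the amounts of the transcripts. Array by array, S82649_r_at stood at the 59.0th and 63.8th percentiles on the antibody arrays, against the 84.0th and 85.5th on the control arrays. For S82649_s_at they were the 70.9th and 74.4th on the antibody arrays, against the 83.4th and 84.5th on the control arrays. Nptxr stayed between the 38.7th and the 46.5th percentile on all 4 arrays.

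Beside probe sets of like brightness, the Nptx2 differences were far out and those of Nptxr and the dimmest Nptx1 probe set were not. Of the 500 probe sets nearest in level to S82649_r_at, 0 had a log2 difference as low as −1.69, and of those nearest to S82649_s_at, 4 had one as low as −0.95. Among all 5252 tested probe sets S82649_r_at had the lowest difference (rank 1), and S82649_s_at ranked 33 from the low end. For Nptxr, 116 of the 500 nearest probe sets were as high or higher. For the Nptx1 probe sets the counts were 16 (rc_AI044716_at), 47 (rc_AI072098_at) and 322 (rc_AI072943_at). These ranks describe values that led to the choice of Nptx2 and support nothing further.

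All 6 members had groups that did not overlap, 4 with higher values after the antibody and 2 with lower values. Over the 8740 probe sets, 27.6% had separate groups with the antibody arrays higher and 12.2% had them with the antibody arrays lower. The higher values were commoner among dim probe sets. Near rc_AI072098_at, 35.4% of the 500 nearest probe sets had separate, higher antibody values, and their median log2 difference was 0.14. Near rc_AI072943_at it was 39.8%, with a median of 0.10. Near S82649_r_at the median difference was 0.01. With the median of its neighbours subtracted, an alternative chosen after seeing the data, the difference was 0.57 for rc_AI044716_at, 0.35 for rc_AI072098_at, −0.04 for rc_AI072943_at and 0.16 for Nptxr, while S82649_r_at stayed at −1.70 and S82649_s_at at −0.93. The part of this general shift of dim probe sets in the Nptx1 and Nptxr values was not tested.

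**Figure D2:**
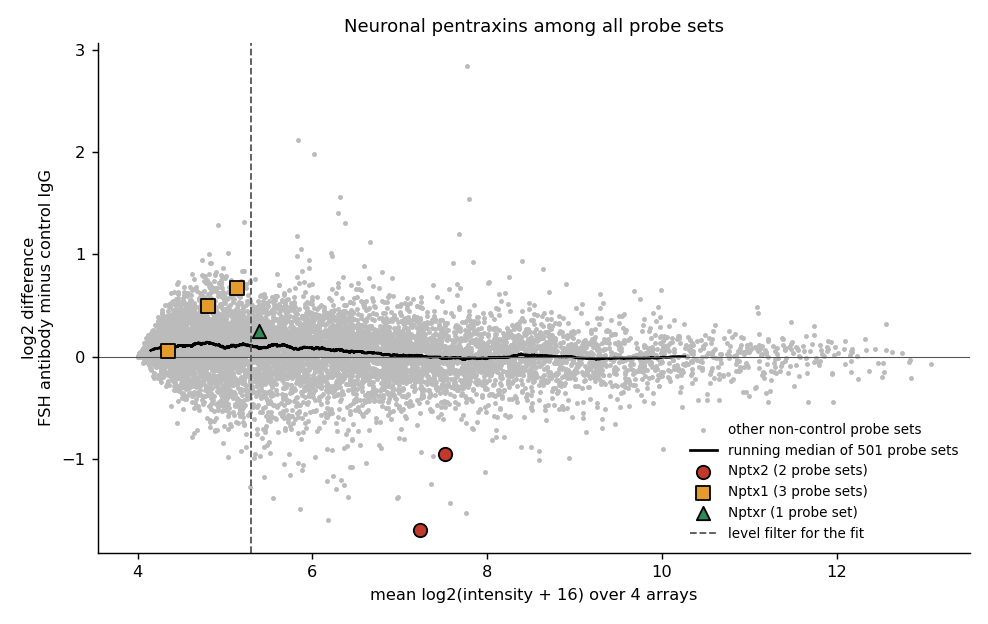
Log2 difference (FSH antibody minus control IgG) against the mean log2(intensity + 16) over the 4 arrays for the 8740 probe sets that are not array controls, with a running median and the level filter as a dashed line. The Nptx2 probe sets lie at −1.69 and −0.95, below nearly all probe sets of their level, and Nptx1 lies left of the filter, where the running median is above 0.

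Replicate agreement was measured apart from the comparison. The log2 values of S82649_r_at differed between the replicates by 0.29 on the antibody arrays and by 0.14 on the control arrays, where the 500 probe sets nearest in level had median absolute differences of 0.21 and 0.18. For S82649_s_at the replicates differed by 0.21 on the antibody arrays and 0.09 on the control arrays. The within-group SD of S82649_r_at was 0.16, and 47.0% of its neighbours in level had a smaller one. For S82649_s_at the SD was 0.11, and 28.6% of its neighbours had a smaller one. For rc_AI044716_at the SD was 0.31, and 73.2% of its neighbours had a smaller one.

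The genes whose values followed the brightest Nptx2 probe set most closely were Cdkn1a, Hspa9, Slc6a9, Sdc1 and Gpam. Likeness was the root mean square difference over the 4 arrays of log2 values centred on each probe set's mean, among 4346 tested probe sets with 1 symbol. Cdkn1a, the cell cycle inhibitor p21, was nearest at 0.06. It read 12.1 and 16.2 on the antibody arrays, against 45.0 and 41.3 on the control arrays, and its second probe set had a log2 difference of −1.04 beside −0.97 for the first. Hspa9, a mitochondrial chaperone, read 254.1 and 259.0 on the antibody arrays, against 537.7 and 531.1 on the control arrays, but its other probe sets gave −0.02 and 0.08. Slc6a9, a glycine transporter, read 51.6 and 52.6 on the antibody arrays, against 116.9 and 131.8 on the control arrays. Sdc1, a cell surface proteoglycan, read 36.2 and 37.0 on the antibody arrays, against 85.4 and 78.8 on the control arrays, and its other probe set gave −0.14. Gpam, which starts glycerolipid synthesis, read 24.0 and 24.1 on the antibody arrays, against 66.6 and 73.9 on the control arrays. Its other tested probe set gave −0.17, and those below the filter gave −0.72, −0.04 and 0.18. With 4 arrays, 100 of the 4346 probe sets correlated with this Nptx2 probe set above 0.95, so likeness over so few arrays is common. For S82649_r_at no probe set came within a root mean square difference of 0.2, while 38 did for S82649_s_at. This distance keeps the size of a difference, and S82649_r_at had the lowest difference of all tested probe sets. By correlation above 0.95 the counts were alike, with 107 probe sets for S82649_r_at.

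**Figure D3:**
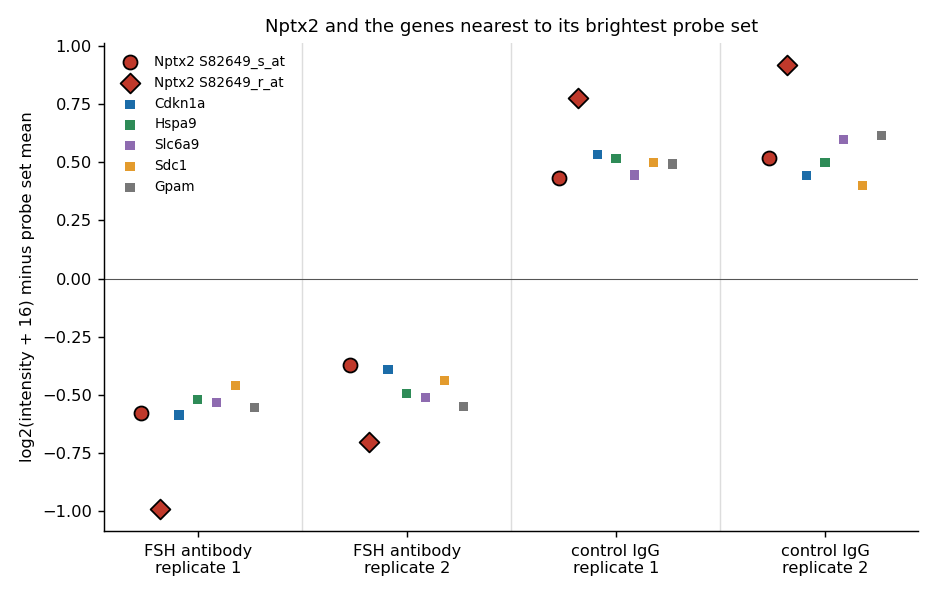
Log2(intensity + 16) minus the mean of each probe set on the 4 arrays, FSH antibody arrays left of control IgG arrays, for both Nptx2 probe sets and the 5 genes nearest to S82649_s_at. The 5 genes lie near S82649_s_at on each array, and S82649_r_at spreads wider, with a difference of −1.69 beside −0.95.

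The genes that act with neuronal pentraxins elsewhere were compared next, as 7 lists with 56 genes on the array, of which 34 were bright enough to be tested. With limma and Benjamini-Hochberg adjusted p-values, 0 of the 34 passed 0.05 in either direction, and 3 (8.82%) had an unadjusted p under 0.05, against 249 (7.86%) of all 3169 genes tested. Over the whole array 14 of 5252 probe sets passed (0.267%), 6 higher (0.114%) and 8 lower (0.152%). Over all genes tested, each by its brightest probe set, 1766 of 3169 had values above 0 and 1403 below. Their median log2 difference was 0.03. The whole-array count was 154 when antibody replicate 1 was left out, 93 when antibody replicate 2 was, and 0 when either control replicate was.

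Of the other pentraxins, Crp, the acute-phase C-reactive protein, was tested and did not pass. It read 126.0 and 61.0 on the antibody arrays, against 54.6 and 99.3 on the control arrays, and the groups overlapped (log2 difference 0.21 ± 0.31, limma adjusted p = 0.904). Its other probe sets gave 0.31 and 0.01. Apcs, serum amyloid P, was too dim to be tested, at 13.5 and 15.2 on the antibody arrays, against 12.3 and 9.4 on the control arrays.

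The AMPA receptor subunits, which neuronal pentraxins bind at synapses, were dim in these RNA samples. Of Gria1 to Gria4 only Gria1 reached the filter, on its brightest probe set, with 25.1 and 31.3 on the antibody arrays, against 19.9 and 23.2 on the control arrays (log2 difference 0.23, limma adjusted p = 0.851). Gria2 read 7.1 and 4.2 on the antibody arrays, against 2.7 and 1.8 on the control arrays. Gria3 was below 5 on all arrays. Gria4 lay between 16.3 and 22.8 on its brightest probe set and between 0.5 and 6.0 on its others. Together with their binding proteins, 4 of 9 genes of this list were tested and 0 passed in either direction, with a median log2 difference of 0.16. Grip2, a scaffold of these receptors, gave 0.27 ± 0.20 (limma adjusted p = 0.805) on its brightest probe set and −0.46 ± 0.23 (adjusted p = 0.657) on another from the same accession, so its probe sets disagreed. Dlg1, a synaptic and junctional scaffold, gave −0.27 ± 0.23 (limma adjusted p = 0.838). With the probe sets of each gene averaged the list median was −0.0027. The NMDA, kainate and delta receptor genes had 6 of 11 tested. None passed, and all 6 had values above 0, as did 1766 of all 3169 genes tested, with a list median of 0.20. Grik5, a kainate receptor subunit, gave 0.23 ± 0.19 (limma adjusted p = 0.837), and Grin2b, an NMDA receptor subunit, 0.21 ± 0.18 (adjusted p = 0.845).

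A further list held proteins known to bind or cleave neuronal pentraxins, with their relatives, and 5 of its 6 genes were tested. They include Rcn2, the calcium-binding protein that was isolated with neuronal pentraxin on a column of the snake toxin taipoxin, and Adam17, the protease that cleaves Nptxr. Rcn2 read 227.4 and 158.8 on the antibody arrays, against 254.3 and 245.2 on the control arrays. All antibody values were lower, but the antibody arrays differed widely from each other, and the log2 difference of −0.37 ± 0.20 did not pass (limma adjusted p = 0.690). Its relative Rcn3 gave −0.21 ± 0.18 (adjusted p = 0.847). Adam17 gave −0.12 (adjusted p = 0.929) and overlapped between groups, at 51.5 and 70.9 on the antibody arrays, against 74.5 and 60.1 on the control arrays. Of the 5 tested genes of this list 0 passed, 4 had values below 0, and the median was −0.12.

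Complement C1q, which pentraxins can bind, starts the classical complement pathway. C1qb, one of its chains, read 18.7 and 17.3 on the antibody arrays, against 31.3 and 49.2 on the control arrays, with a log2 difference of −0.71 ± 0.23 that did not pass (limma adjusted p = 0.489). Its second probe set gave 0.06 ± 0.26, so the C1qb probe sets disagreed. C1r, a protease of the same complex, gave 0.09 ± 0.17 (adjusted p = 0.933). Of 4 tested genes 0 passed, and the median was −0.02.

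Nptx2 belongs in neurons to the genes induced by activity, and 11 of 15 such genes were tested here. None passed by limma over all probe sets, and the median was 0.21. Values were above 0 for 7 and below for 4, against 1766 and 1403 over all genes tested. Egr1, an early transcription factor, read 315.6 and 263.1 on the antibody arrays, against 196.6 and 224.1 on the control arrays (0.43 ± 0.18, limma adjusted p = 0.582). Its groups did not overlap on this probe set, with antibody values above the control values, and its other probe sets gave 0.38, 0.23 and −0.08. Nr4a1, an orphan nuclear receptor, read 79.5 and 24.9 on the antibody arrays, against 120.9 and 79.7 on the control arrays. Its difference was −0.87 ± 0.35 (limma adjusted p = 0.580), while another of its probe sets read 0.12. It passed when antibody replicate 1 was left out (−1.48), but there the antibody group is 1 array, assumed to vary like the 2 control arrays, and 154 probe sets passed in all. Arc, which regulates AMPA receptor uptake, gave 0.21 (limma adjusted p = 0.841), and Bdnf, a neurotrophin, −0.01 (adjusted p = 0.998) on its brightest probe set and 0.22 on its other tested one. The perineuronal net genes, whose proteins surround neurons on which Nptx2 gathers, had 3 of 8 tested and 0 passed, with a median of 0.18. Cspg4, a membrane proteoglycan, gave 0.30 ± 0.19 (limma adjusted p = 0.747), and Bcan, the lectican brevican, 0.18 ± 0.23 (adjusted p = 0.888).

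**Figure D4:**
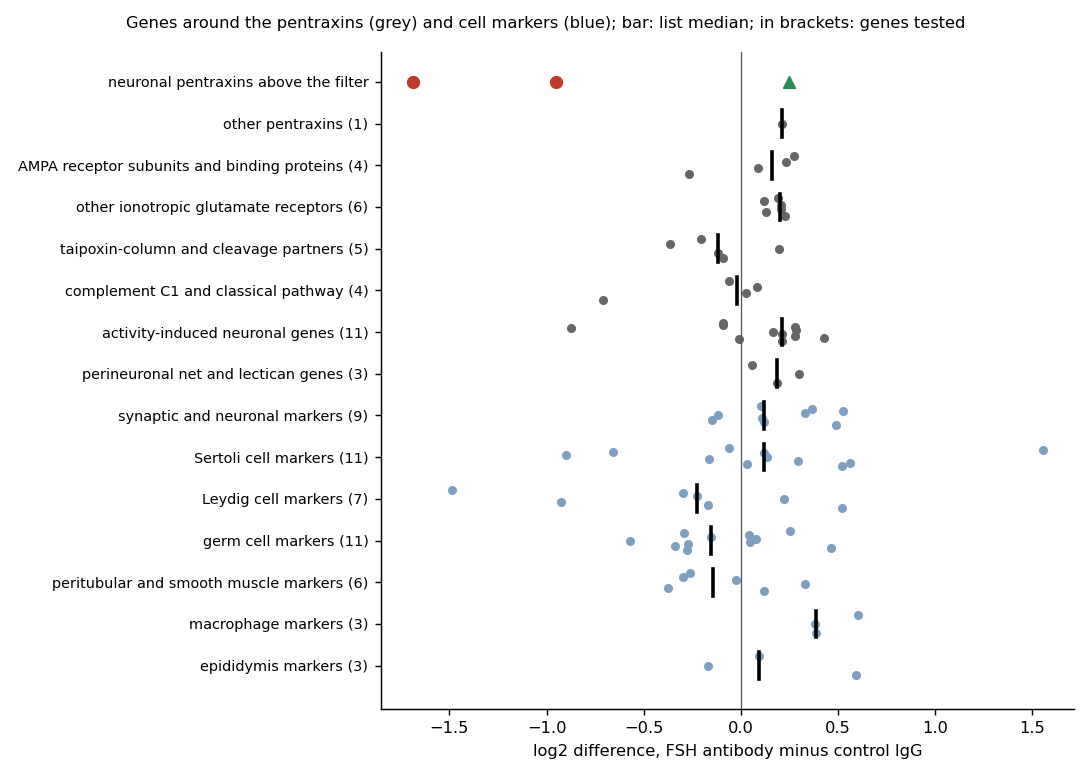
Log2 difference (FSH antibody minus control IgG) of the tested genes in each list, 1 point per gene on its brightest probe set, with the list median as a bar, below a first row that holds both Nptx2 probe sets (circles) and Nptxr (triangle). No gene of the 7 lists around the pentraxins passed limma, and the list medians lie between −0.12 and 0.21.

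Markers of the cell types that a testis sample can hold were set beside the Nptx2 values, by the summed intensity of all markers on the array. The Sertoli cell sum (12 genes, 11 tested) was 10517 and 11361 on the antibody arrays, against 11312 and 10818 on the control arrays, and the groups overlapped. Clusterin (Clu) made up most of that sum. Without it, as chosen after seeing the data, the sum was 4077 and 3902 on the antibody arrays, against 4536 and 4048 on the control arrays, and the groups still overlapped. Testin, a Sertoli cell product, was the member of this list that passed, with a log2 difference of 1.56 ± 0.18 (limma adjusted p = 0.0152). Over all 3169 genes tested, 3 passed higher and 6 lower. Of the 11 tested genes of this list 5 had an unadjusted p under 0.05, in both directions, against 249 (7.86%) of all genes tested. Besides Testin these were Inha, the inhibin alpha subunit (−0.90 ± 0.19), Shbg, which encodes androgen-binding protein (−0.66), the protease gene Ctsl (0.56) and Amh, the anti-Müllerian hormone (0.52), with limma adjusted p from 0.122 to 0.437. The Leydig cell sum (7 genes, all tested) was 2186 and 2407 on the antibody arrays, against 2822 and 2800 on the control arrays. It was lower on both antibody arrays. By single probe set, 12.2% of those that are not array controls had separate, lower antibody values. Of the Leydig genes, each by its brightest probe set, 5 had values below 0 and 2 above. An unadjusted p under 0.05 was found for 3 of the 7, in both directions. Lhcgr was counted as below 0 (−0.22), but its other probe sets gave 0.46, 0.24, 0.46 and 0.02, the last 2 below the filter. Star, which brings cholesterol into mitochondria, passed (−1.49 ± 0.23, limma adjusted p = 0.0418), and Fdx1, an electron carrier of the steroid enzymes, gave −0.93 ± 0.19 (adjusted p = 0.116). Cyp17a1, the brightest, made up most of the Leydig cell sum. It read 1361 and 1653 on the antibody arrays, against 1730 and 1651 on the control arrays. Cyp11a1, which cleaves the cholesterol side chain, was higher on both antibody arrays, at 185.1 and 121.3, against 104.6 and 95.1 on the control arrays (0.52 ± 0.21, limma adjusted p = 0.580), and Hsd17b3, which makes testosterone, gave 0.22. The Star call was lost with quantile normalization (adjusted p = 0.115), median centring (0.0737), a constant of 1 (0.0570), no filter (0.224), no moderation (0.718) and without control replicate 1 (0.387) or 2 (0.633), and Star was not tested with the filter at the 60th percentile. The Testin call was lost with quantile normalization (adjusted p = 0.0615), no filter (0.224), no moderation (0.686) and without control replicate 1 (0.318) or 2 (0.429). The part of RNA from Leydig cells, or from any other of these cell types, in the Nptx2 values was not tested.

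The germ cell sum (12 genes, 11 tested) was 1836 and 1328 on the antibody arrays, against 1567 and 2302 on the control arrays, and the groups overlapped. The acrosomal protease gene Acr stood near the middle of the array in level, at 35.6 and 31.0 on the antibody arrays, against 34.7 and 54.2 on the control arrays. Ldhc, the germ cell lactate dehydrogenase, differed widely within both groups. It read 143.6 and 41.3 on the antibody arrays, against 41.6 and 333.6 on the control arrays. Crem read 114.0 and 108.0 on the antibody arrays, against 149.8 and 139.9 on the control arrays. Its other probe sets were also lower on both antibody arrays (log2 differences −0.45, −0.39 and −0.78, the last below the filter). Of the 11 tested genes 5 had values above 0 and 6 below. Of the germ cell list 0 of 11 passed by limma, with 0 at an unadjusted p under 0.05. The peritubular sum overlapped between groups (3752 and 2748 after the antibody, against 3274 and 3447 in the controls). Macrophage markers (4 genes) summed to 247 and 314 after the antibody, against 208 and 182 in the controls, and the 15 synaptic and neuronal markers to 696 and 700 after the antibody, against 600 and 581 in the controls. Both of these sums were higher on the antibody arrays. By single probe set, 27.6% of those that are not array controls had separate, higher antibody values. No gene of either list passed (smallest adjusted p 0.534 for Lyz2 and 0.580 for Gap43 by limma). Gap43, a growth cone protein, read 39.4 and 44.4 on the antibody arrays, against 25.9 and 24.6 on the control arrays. The epididymis sum (4 genes) was 382 and 424 after the antibody, against 381 and 434 in the controls. The median log2 differences were 0.12 for the Sertoli cell, −0.22 for the Leydig cell, −0.15 for the germ cell, −0.14 for the peritubular, 0.39 for the macrophage, 0.12 for the neuronal and 0.09 for the epididymis list. The members of the other lists nearest to passing were Crem (−0.34) and Adam2 (0.46) among germ cell genes, Cald1 (−0.37) and Myl9 (−0.30) among peritubular genes, Syp (0.52) beside Gap43 (0.49) among neuronal genes, Cd14 (0.39) beside Lyz2 (0.60) among macrophage genes, and Adam7 (0.59) and Cst8 (−0.17) among epididymis genes. Their adjusted p by limma lay between 0.534 and 0.878. No marker on the array was listed at 0 on its brightest probe set.

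Marker levels in the labelled tissue were described by percentile. Without an array known to be of ovary to compare with, they do not settle which organ was pooled. The 12 Sertoli cell genes had a median at the 85.5th percentile (29.2nd for Inhbb), the 7 Leydig cell genes at the 74.0th (46.0th for Hsd17b3) and the 12 germ cell genes at the 68.4th (2.85th for Tnp2), the percentile in brackets being the lowest of each list. The median intensity was 38.8 and 40.4 on the antibody arrays, against 39.2 and 36.5 on the control arrays. The 3′ to 5′ log2 difference of the beta-actin control transcript, a measure of RNA integrity, was 1.20 and 1.10 on the antibody arrays, against 1.15 and 0.86 on the control arrays, and that of GAPDH was −0.07 and −0.08 on the antibody arrays, against 0.06 and −0.16 on the control arrays. The groups overlapped for both transcripts. With 2 arrays a group, precision is limited throughout.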

How the data were processed

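Values were the linear intensities deposited by the authors, 1 per probe set for each of 4 arrays. Their summary software, background correction and detection calls are not stated. The mean after trimming 2% at either end was 125 on every array, so arrays had been scaled to each other. Gene symbols came from the platform annotation (7018 of 8799 probe sets with 1 symbol, 308 with several, 1473 with none), and 6994 were updated by Entrez identifier with a RefSeq table of assembly GRCr8. Groups were taken from the source names.

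Values were analysed as log2(intensity + 16). The 59 array controls and probe sets under the 40th percentile of the mean log2 value were left out, which kept 5252. Two-sided tests of the group difference came from limma 3.58.1 (lmFit, eBayes with trend) under R 4.3.3, adjusted by Benjamini and Hochberg over these probe sets. The functions were tested on simulated data. SEs of members come from their own replicates, those of other genes from limma. Lists used the brightest probe set of each gene. Named were all member probe sets, called list genes, 2 further genes per list by smallest p, and the 5 symbols nearest to the brightest Nptx2 probe set. Other genes, such as Gria2, Apcs, Adam17, Arc, Bdnf, Acr, Ldhc, Clu and Shbg, were chosen after their values were seen. So were Ctsl, Amh, Cyp11a1, Hsd17b3, Inhbb, Tnp2, Cyp17a1, Lhcgr and Stx1a. The members and lists were chosen with earlier results of these data known. Motifs were searched in RefSeq promoter stretches of 300 bases.

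Alternatives were quantile normalization, median centring, constants of 1 and 64, no filter or the 60th percentile, no trend, no moderation, the replicate number as a block, averaged probe sets per gene and leaving out each array.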

Additional observations from a re-analysis of the deposited data

How the results depend on the processing

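Both Nptx2 probe sets kept a negative difference under all 9 alternatives run on them, from −1.90 to −1.27 for S82649_r_at and from −1.05 to −0.75 for S82649_s_at. Nptx2 was chosen for this direction, so it is no sign of stability. A constant of 1 gave −1.90 for S82649_r_at, and a constant of 64 gave −1.27 for it and −0.75 for S82649_s_at. For the dim Nptx1 probe sets the constant set the size by construction: 1.20, 1.08 and 0.23 with a constant of 1, and 0.29, 0.18 and 0.018 with 64 (rc_AI044716_at, rc_AI072098_at, rc_AI072943_at). Quantile normalization gave 0.39 for rc_AI072098_at and −0.044 for rc_AI072943_at, median centring 0.44 and 0.012, and subtracting the median of the 500 nearest probe sets 0.35 and −0.043. Leaving out 1 array gave −1.84 to −1.55 for S82649_r_at, −1.05 to −0.85 for S82649_s_at, 0.42 to 0.92, 0.46 to 0.52 and 0.02 to 0.10 for the Nptx1 probe sets, and 0.10 to 0.40 for Nptxr. Level percentiles on the antibody arrays alone were 72.7, 61.5 and 33.1, against 84.0, 84.9 and 22.01 on the control arrays alone (S82649_s_at, S82649_r_at, rc_AI072098_at), and 12.7 for rc_AI072943_at on the control arrays alone.

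Against 14 probe sets called by limma, 0 were called with quantile normalization, 0 with no filter and 0 without moderation (420, 702 and 352 at an unadjusted p under 0.05), and 4 with median centring. Leaving out 1 array gave 0 to 154. Samples share only a replicate number: over 5252 probe sets the deviations of same-numbered arrays correlated at 0.0039, and the number as a replicate block gave 39 calls. In the lists around the pentraxins, leaving out 1 array gave 0 to 1 calls (Nr4a1), and the other alternatives gave 0. No trend, no moderation and the replicate block leave a log2 difference as it is, so list medians could move only in the other alternatives. Over all 14, they kept their sign for the glutamate receptors other than AMPA type (0.12 to 0.33) and the activity-induced genes (0.09 to 0.30). They turned in at least 1 for the 5 other lists around the pentraxins. The causes were not tested, except that filters and left-out arrays change how much data enters. Signal over background is unknown here.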
